A study of Caenorhabditis elegans with 36 samples.

Results

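lsy-6 and mir-124 are microRNAs (miRNAs) of the nematode Caenorhabditis elegans that are made in neurons. They were taken by their row names, cel-lsy-6 and cel-mir-124, as miRNAs restricted to sensory and other neurons, from a table of counts for 250 miRNA hairpins, so 2 of 250 hairpins are described here. Both had counts in all 36 libraries and both were among the 193 hairpins with enough counts to be tested. The RNA was that of whole N2 hermaphrodites, N2 being the wild-type laboratory strain, and the neurons were not isolated, so the restriction to neurons is background and could not be checked in these libraries. A lower level in whole-worm RNA can come from fewer cells of a type or from less of the miRNA per cell. As levels are relative to the other miRNAs of a library, it can also come from more miRNA of other tissues. These cannot be told apart.

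The 12 groups of 3 libraries were N2 worms given rotenone (100 nM) at 6 hours and at 1, 2, 3 and 5 days, worms given DMSO (0.1 %) at the same 5 times, and worms given H2O (0.1 %) at 1 and 5 days. Rotenone inhibits complex I of the mitochondrial respiratory chain, and DMSO is its solvent. Times run from the start of treatment by the series title but are listed as age in the labels of the samples. Whether libraries of one group stem from different cultures is not stated, and p-values then cover no more than the library-to-library spread, which may be technical.

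As background, a miRNA is cut from a hairpin precursor and guides an Argonaute protein to messenger RNAs that pair with its seed. lsy-6 acts in the left member of the ASE pair of taste neurons, where it represses the homeobox gene cog-1 and so sets the difference between the left and the right ASE neuron. mir-124 is conserved from worms to mammals as a miRNA of neurons, and in C. elegans it is made largely in ciliated sensory neurons. In the WBcel235 annotation of Ensembl, lsy-6 (WBGene00003088) lies on chromosome V and overlaps no other annotated gene. mir-124 (WBGene00003319) lies on chromosome IV inside an intron of trpa-1, on the same strand. trpa-1 encodes a cation channel of the TRP family that acts in sensory neurons. A noncoding RNA gene, C29E6.8, overlaps mir-124 on the opposite strand, and whether the counting used strand is not given in the sources used here.

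Library totals ran from 4361246 to 14960062 counts. The 4 sequencing lanes held 3 whole groups each, and rotenone and DMSO never shared a lane at the same time, so treatment and lane cannot be told apart within a time. Successive times of a treatment were on different lanes too, so a step in time and its change of lane cannot be told apart either. Levels are given in CPM, counts scaled to library size with factors from the trimmed mean of M-values (TMM). lsy-6 had 164 to 1259 counts per library and mir-124 had 47 to 535. The DMSO libraries of 2 days were uneven for both miRNAs. There the standard deviation was 19.6% of the mean for lsy-6 and 15% for mir-124, where counting error alone would give 3.06% and 4.59%.

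In worms given rotenone the level of lsy-6 was highest at 3 days and lowest at 5 days, and in worms given DMSO it was highest at 2 days. With rotenone the 3 libraries of lsy-6 held 70.7, 66.4 and 64.0 CPM at 6 hours and 56.8, 58.9 and 52.6 CPM at 1 day. They held 58.9, 53.4 and 52.1 CPM at 2 days, 74.8, 77.9 and 73.9 CPM at 3 days, and 48.2, 44.3 and 46.2 CPM at 5 days. All 3 libraries of 3 days lay above every other rotenone library, and all 3 of 5 days lay below them. With DMSO the libraries of lsy-6 held 68.7, 62.7 and 66.1 CPM at 6 hours, 64.4, 56.7 and 60.1 CPM at 1 day, and 72.3, 89.7 and 107.4 CPM at 2 days. At 3 days they held 73.7, 82.6 and 79.9 CPM and at 5 days 46.7, 43.8 and 43.1 CPM. The DMSO libraries of 2 days and 3 days overlapped and stood above the others. With H2O lsy-6 stood at 62.8, 61.3 and 65.1 CPM at 1 day and at 43.0, 42.3 and 39.9 CPM at 5 days.

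mir-124 was highest at 2 days in both treatments. With rotenone its libraries held 17.5, 17.9 and 18.2 CPM at 6 hours, 22.8, 19.6 and 16.4 CPM at 1 day, and 31.8, 30.2 and 29.6 CPM at 2 days. At 3 days they held 17.9, 21.2 and 22.2 CPM and at 5 days 15.7, 15.6 and 12.9 CPM. With DMSO its libraries held 17.2, 21.0 and 18.6 CPM at 6 hours, 20.9, 17.3 and 19.2 CPM at 1 day, and 33.8, 38.9 and 45.7 CPM at 2 days. No library of another time reached the lowest library of 2 days in either treatment. At 3 days the DMSO libraries held 16.8, 18.6 and 17.2 CPM and at 5 days 16.2, 14.2 and 8.51 CPM. The H2O libraries held 20.9, 18.4 and 19.0 CPM at 1 day and 13.5, 15.2 and 14.8 CPM at 5 days.

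**Figure D1:**
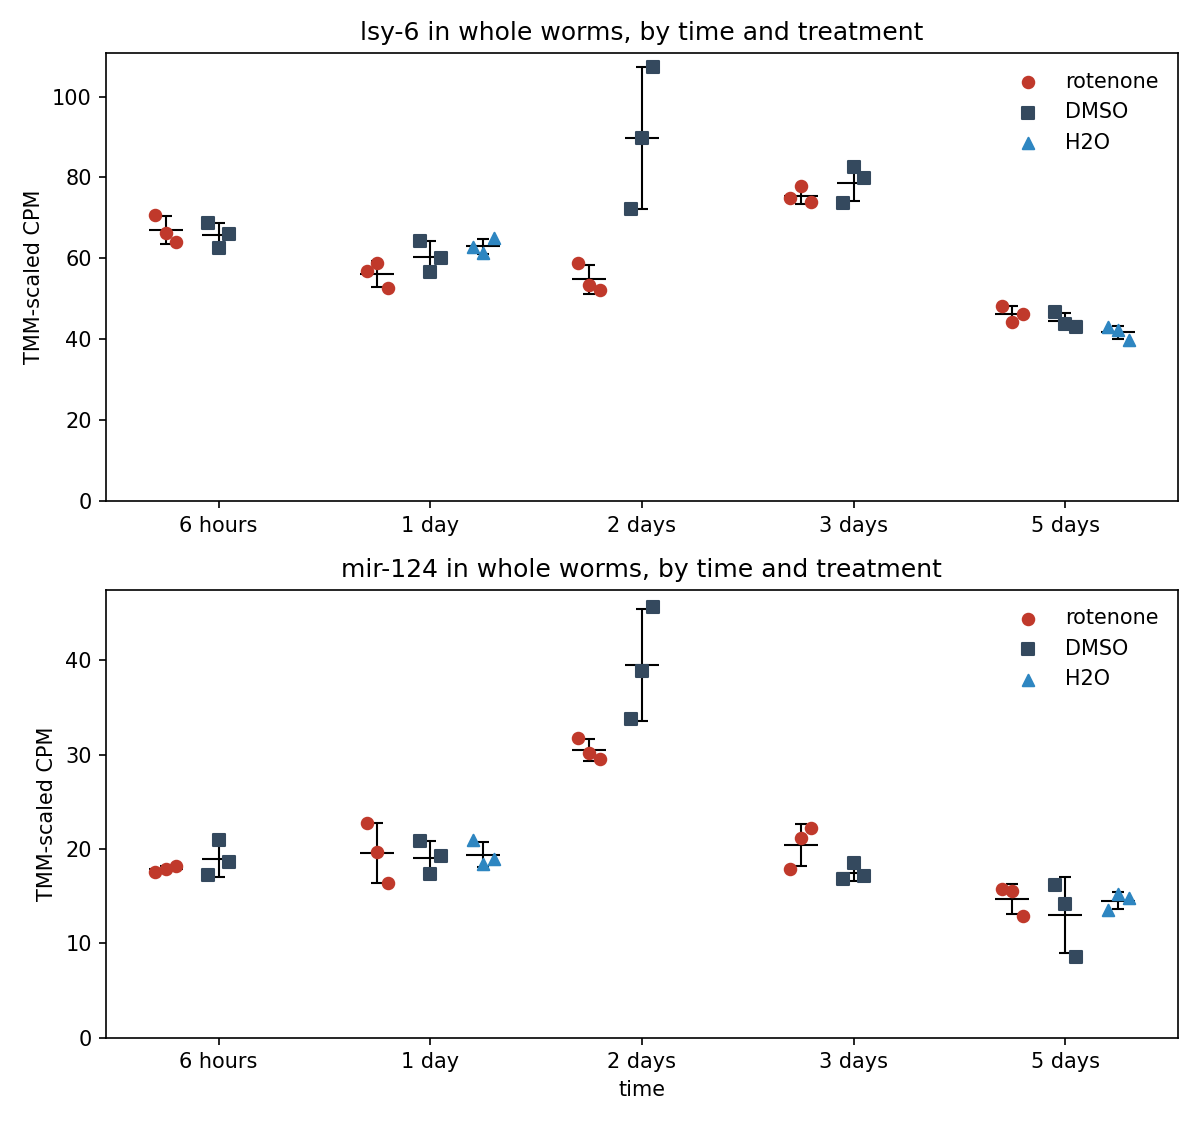
Level of lsy-6 (top) and mir-124 (bottom) in TMM-scaled CPM (vertical axes) by time (horizontal axis), with rotenone as circles, DMSO as squares and H2O as triangles. Points are single libraries, and the bar and whiskers are the mean and SD of 3. mir-124 stands highest at 2 days with rotenone and with DMSO, while lsy-6 at 2 days is high with DMSO and not with rotenone.

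Over the 12 groups the highest mean of lsy-6 was 2.15 times its lowest and that of mir-124 3.04 times its lowest. Of the 11 pairs of neighbours in the order of group means, 8 had overlapping libraries for either miRNA. For lsy-6 the order was DMSO at 2 days, DMSO at 3 days, rotenone at 3 days, rotenone and then DMSO at 6 hours, H2O, DMSO and rotenone at 1 day, rotenone at 2 days, and last rotenone, DMSO and H2O at 5 days. Gaps with no overlap lay below rotenone at 3 days, below rotenone at 2 days and below DMSO at 5 days. For mir-124 the order opened with DMSO at 2 days and rotenone at 2 days, each clear of its lower neighbour. The 7 groups of 6 hours, 1 day and 3 days followed with overlapping neighbours, from 20.4 ± 2.23 CPM in rotenone at 3 days to 17.5 ± 0.922 CPM in DMSO at 3 days (SD, n = 3). The 3 groups of 5 days were lowest, at 14.7 ± 1.57 CPM with rotenone, 13.0 ± 3.98 CPM with DMSO and 14.5 ± 0.911 CPM with H2O.

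mir-124 rose between 1 and 2 days in both treatments and fell again by 3 days, whereas lsy-6 rose between 1 and 2 days in DMSO and between 2 and 3 days in rotenone. Adjusted p-values below come from the quasi-likelihood test of edgeR, adjusted by Benjamini-Hochberg over the 193 hairpins, fold changes are log2 ± SE with n = 3 libraries per group, and a miRNA passed where the adjusted p was under 0.05. In DMSO at 2 days, against 1 day, mir-124 was 2.05-fold higher (1.04 ± 0.12, adjusted p = 4.7e-09) and lsy-6 1.48-fold higher (0.57 ± 0.087, adjusted p = 1.01e-06), where 18.7% of all hairpins tested rose. In rotenone over the same step mir-124 was 1.56-fold higher (0.64 ± 0.13, adjusted p = 0.000164), where 13% of hairpins rose. lsy-6 did not pass there, at -0.03 ± 0.093 with a 95% interval from -0.22 to 0.16, and its sign turned with DESeq2 size factors (0.04) and total counts (0.05).

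At 3 days, against 2 days, mir-124 fell to 0.668 of its level in rotenone (-0.58 ± 0.13, adjusted p = 0.000595; 16.6% of hairpins fell) and to 0.443 in DMSO (-1.17 ± 0.13, adjusted p = 4.29e-10; 23.3% fell). lsy-6 rose 1.38-fold over that step in rotenone (0.46 ± 0.092, adjusted p = 0.000116), where 20.2% of hairpins rose. In DMSO it stood at -0.19 ± 0.087 and did not pass (adjusted p = 0.0718). It passed as a fall without DMSO replicate 1 of 2 days (-0.32) and with other scaling, while without DMSO replicate 3 of 2 days the value was -0.04.

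By 5 days both miRNAs were lower than at 3 days. The libraries of 5 days, in all 3 treatments, were also shallow, at 4361246 to 6737429 counts. Their TMM factors of 0.854 to 0.939 lay below those of all other libraries, which were 0.961 or more. The part of depth and scaling in the falls was not tested. lsy-6 fell to 0.612 of its level in rotenone (-0.71 ± 0.099, adjusted p = 1.4e-07; 27.5% of hairpins fell) and to 0.565 in DMSO (-0.82 ± 0.10, adjusted p = 6.2e-09; 22.8% fell). mir-124 fell to 0.721 in both, with -0.47 ± 0.16 in rotenone (adjusted p = 0.0125) and -0.47 ± 0.17 in DMSO (adjusted p = 0.0185). In H2O at 5 days, against 1 day, lsy-6 fell to 0.661 (-0.60 ± 0.10, adjusted p = 2.33e-06) and mir-124 to 0.741 (-0.43 ± 0.15, adjusted p = 0.0139), where 30.1% of hairpins fell. Calls of the falls of mir-124 changed with single libraries. The DMSO call was lost without replicate 3 of 5 days (-0.20) or replicate 2 of 3 days (-0.43), the rotenone call without replicate 3 of 3 days (-0.41) or replicate 3 of 5 days (-0.38), and the H2O call without replicate 1 of 1 day (-0.37) or replicate 1 of 5 days (-0.38).

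At 1 day, against 6 hours, changes were small for both miRNAs although 63.7% of hairpins passed in rotenone and 65.3% in DMSO. lsy-6 fell to 0.837 in rotenone (-0.26 ± 0.091, adjusted p = 0.0135; 31.1% of hairpins fell), a call lost without rotenone replicate 1 of 6 hours (-0.22) or replicate 3 of 1 day (-0.21). In DMSO it stood at -0.12 ± 0.090 (adjusted p = 0.231). mir-124 stood at 0.13 ± 0.13 in rotenone and 0.01 ± 0.13 in DMSO, with adjusted p of 0.379 and 0.937. Tested over all 5 times at once, both changed in rotenone (F = 16.1 for lsy-6 and 17.3 for mir-124, adjusted p = 2.08e-07 and 9.84e-08) and in DMSO (F = 31.5 and 45.4, adjusted p = 5.32e-11 and 3.34e-13). So did 86.5% of hairpins in rotenone and 89.6% in DMSO.

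The high level of mir-124 at 2 days was present on both lanes that held a group of that time. On lane 2 its mean was 19.1 ± 1.77 CPM in DMSO at 1 day, 30.5 ± 1.13 CPM in rotenone at 2 days and 14.5 ± 0.911 CPM in H2O at 5 days. On lane 1 it was 17.9 ± 0.332 CPM in rotenone at 6 hours, 39.5 ± 5.93 CPM in DMSO at 2 days and 13.0 ± 3.98 CPM in DMSO at 5 days. On lanes 3 and 8, which held no group of 2 days, the 6 group means of mir-124 ran from 14.7 to 20.4 CPM. Groups that shared a lane differed in time and in part also in treatment, and the part of the lane was not tested.

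A pair of comparisons set times of the same treatment and lane against each other. In DMSO at 5 days, against 2 days (lane 1), lsy-6 fell to 0.495 (-1.01 ± 0.098, adjusted p = 1.29e-11) and mir-124 to 0.319 (-1.65 ± 0.15, adjusted p = 2.41e-12), where 34.7% of hairpins fell. In rotenone at 3 days, against 1 day (lane 8), lsy-6 rose 1.35-fold (0.43 ± 0.094, adjusted p = 0.000243), where 21.2% of hairpins rose. mir-124 stood at 0.06 ± 0.14 there (adjusted p = 0.813).

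Rotenone and DMSO differed in both miRNAs at 2 days. lsy-6 averaged 54.8 ± 3.61 CPM with rotenone and 89.8 ± 17.6 CPM with DMSO (SD, n = 3 each), and mir-124 30.5 ± 1.13 CPM with rotenone and 39.5 ± 5.93 CPM with DMSO. All rotenone libraries lay below all DMSO libraries for both, as they did for 20.7% of hairpins. The log2 differences were -0.71 ± 0.089 for lsy-6 (adjusted p = 5.43e-08) and -0.37 ± 0.12 for mir-124 (adjusted p = 0.0104), where 21.2% of hairpins fell and the median of all 193 was 0.02. These SE come from the fit to all 36 libraries and not from the spread of the compared groups alone. With edgeR fitted to the compared groups alone, lsy-6 stood at -0.75 (adjusted p = 0.000739) and mir-124 at -0.40 (adjusted p = 0.0136). Without DMSO replicate 3, the highest library of that group for both miRNAs, lsy-6 still passed at -0.56 and mir-124, at -0.25, did not.

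At the other 4 times neither miRNA passed the test between rotenone and DMSO. At 6 hours the log2 difference of lsy-6 was 0.03 (95% interval -0.15 to 0.21) and that of mir-124 -0.09 (-0.35 to 0.17), where 11.9% of hairpins passed. At 1 day the values were -0.11 (-0.29 to 0.08) for lsy-6 and 0.03 (-0.24 to 0.30) for mir-124, where 16.6% of hairpins passed. At 3 days lsy-6 stood at -0.06 (-0.24 to 0.13) and mir-124 at 0.22 (-0.06 to 0.51), where 12.4% passed. The values at 5 days were 0.06 (-0.16 to 0.28) for lsy-6 and 0.22 (-0.15 to 0.59) for mir-124, where 1.04% passed, and without DMSO replicate 3 of that time the value of mir-124 was -0.05. The intervals of lsy-6 at these 4 times do not reach the value of -0.71 seen at 2 days.

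**Figure D2:**
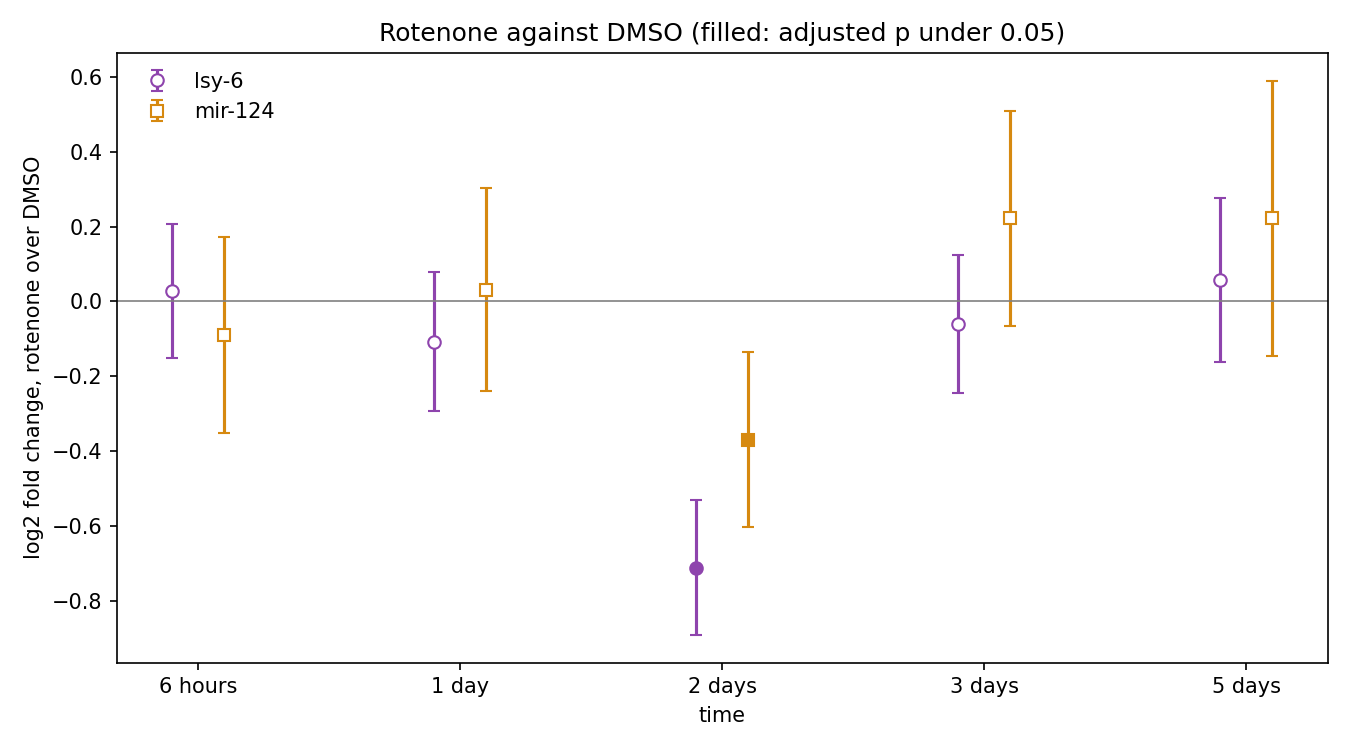
Log2 fold change of rotenone over DMSO (vertical axis) at each time (horizontal axis) for lsy-6 (circles) and mir-124 (squares). Whiskers are 95% intervals of the edgeR fit, and filled symbols passed the adjusted threshold of 0.05. Both miRNAs are filled and below 0 at 2 days, and all intervals at the other times cross 0.

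The difference between times was itself tested. The rotenone effect varied over the 5 times for lsy-6 (F = 12.1, adjusted p = 3.89e-05) and for mir-124 (F = 3.51, adjusted p = 0.0391), as it did for 45.1% of hairpins. For lsy-6 the effect at 2 days was lower than at 6 hours by a log2 value of -0.74 ± 0.13 (adjusted p = 1.94e-05), than at 1 day by -0.60 ± 0.13 (adjusted p = 0.00149), than at 3 days by -0.65 ± 0.13 (adjusted p = 0.000187) and than at 5 days by -0.77 ± 0.14 (adjusted p = 1e-04). These differences were negative and past the threshold in 10.9%, 10.4%, 15% and 13% of hairpins. mir-124 passed against 3 days (-0.59 ± 0.18, adjusted p = 0.0162) and 5 days (-0.59 ± 0.22, adjusted p = 0.035), and not against 6 hours (-0.28 ± 0.17) or 1 day (-0.40 ± 0.18). Without DMSO replicate 3 of 2 days it passed neither against 3 days (-0.47) nor against 5 days (-0.47), and its F was 2.27, short of the threshold. The call against 5 days was also lost without rotenone replicate 2 or 3 of 2 days, DMSO replicate 3 of 5 days (-0.32) or rotenone replicate 1 or 2 of 5 days, and that of F in 13 of the 30 leave-outs.

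Averaged over the 5 times, rotenone libraries held less lsy-6, at 0.896 of the DMSO level (-0.16 ± 0.042, adjusted p = 0.00508), where 14% of hairpins were lower. This average rests mainly on the value of -0.71 at 2 days. At the other times the values of lsy-6 lay between -0.11 and 0.06 and did not pass. mir-124 stood at 0.0038 with a 95% interval from -0.12 to 0.13. In an additive model of time, treatment and lane the value of lsy-6 was -0.15 and did not pass. That model also had no term for a rotenone effect that varies between times, and for lsy-6 the effect varied (F = 12.1). The lost call can therefore not be put down to lane alone.

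The H2O groups allow a check against a second vehicle at 1 and 5 days. No H2O group was made at 2 days, so the difference between rotenone and DMSO at that time has no such check. With rotenone, against H2O, lsy-6 stood at -0.17 ± 0.092 at 1 day (adjusted p = 0.3; 11.9% of hairpins passed) and 0.15 ± 0.11 at 5 days (adjusted p = 0.525; 1.04% passed). mir-124 stood at 0.0042 ± 0.13 and 0.02 ± 0.17 at these times. DMSO and H2O did not differ past the threshold for either miRNA, with -0.06 ± 0.089 and 0.09 ± 0.11 for lsy-6 at 1 and 5 days and -0.03 ± 0.13 and -0.20 ± 0.18 for mir-124. There edgeR passed 0 of 193 hairpins at either time, with 14 and 8 at an unadjusted p under 0.05, and DESeq2 passed 1 and 0.

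The ratio of lsy-6 to mir-124 counts within a library compares both miRNAs without any scaling between libraries. Its absolute size has no meaning for abundance, since ligation and capture differ between small RNAs, and only its differences between groups are read. With rotenone the ratio was 3.75 ± 0.261 at 6 hours, 2.90 ± 0.368 at 1 day, 1.79 ± 0.0517 at 2 days, 3.73 ± 0.425 at 3 days and 3.16 ± 0.372 at 5 days (SD, n = 3 each). With DMSO it was 3.51 ± 0.499, 3.16 ± 0.0982, 2.27 ± 0.114, 4.50 ± 0.137 and 3.68 ± 1.20 at the same times. H2O worms had 3.25 ± 0.226 at 1 day and 2.88 ± 0.263 at 5 days. In both treatments the 3 libraries of 2 days had the lowest ratios of all 15, at 1.76 to 1.85 with rotenone and 2.14 to 2.35 with DMSO. The uneven DMSO libraries of 2 days were thus close in ratio, and the spread at 5 days in DMSO came with 1 library at 5.06 that held 47 counts of mir-124.

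At 2 days, against 1 and 3 days together, the ratio was 0.548-fold in rotenone (log2 -0.87) and 0.6-fold in DMSO (log2 -0.74), a description chosen after the values were seen and given with no test. Between rotenone and DMSO the ratio was 0.792-fold at 2 days (log2 -0.34) and 0.825-fold at 3 days (-0.28), with no overlap between the libraries at either time. Exact permutation tests of 3 against 3 cannot go below p = 0.1, which both reached, and over the 5 times the adjusted p were 0.25 or more. The remaining times gave log2 differences of 0.10 at 6 hours, -0.13 at 1 day and -0.18 at 5 days, with overlapping libraries. Their direction turned without DMSO replicate 2 at 6 hours (-0.0069) and without DMSO replicate 3 at 5 days (0.08). Averaged over the 5 times, with labels exchanged within times, the log2 difference was -0.16 (exact permutation test, two-sided p = 0.0235). It did not pass without DMSO replicate 1 of 6 hours (-0.14), DMSO replicate 3 of 5 days (-0.11) or rotenone replicate 2 of 5 days (-0.15).

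**Figure D3:**
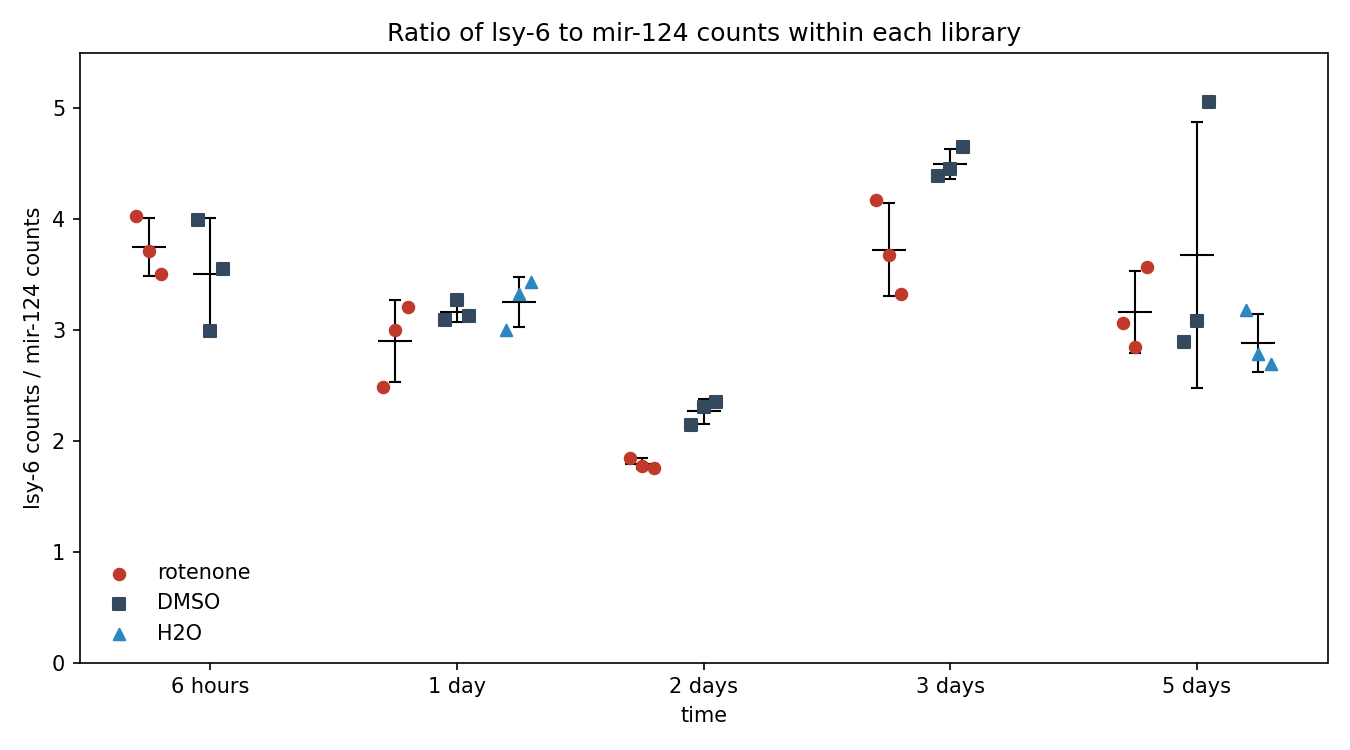
Ratio of lsy-6 counts to mir-124 counts in each library (vertical axis) by time (horizontal axis), with rotenone as circles, DMSO as squares and H2O as triangles; bars and whiskers are the mean and SD of 3 libraries. The ratios of 2 days, 1.76 to 1.85 with rotenone and 2.14 to 2.35 with DMSO, lie below all other libraries of their treatment.

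The other miRNAs of the neuron list were mir-790 and mir-791; mir-791 is known from carbon dioxide-sensing neurons. The 4 members of the list did not move as one. At 2 days 3 of 4 were lower with rotenone than with DMSO, lsy-6, mir-124 and mir-790 (0.691 of the DMSO level, -0.53 ± 0.11, adjusted p = 0.000142), against 21.2% of all hairpins, while mir-791 stood at -0.13 ± 0.14. The DMSO libraries of mir-790 there, at 73.52, 82.01 and 94.55 CPM, increased from replicate 1 to 3 like those of lsy-6 and mir-124. Those of mir-791, at 15.09, 14.24 and 21.42 CPM, did not increase in that order. The summed level of the 4 members was 157.6 to 159.3 CPM in the rotenone libraries of 2 days and 194.8 to 269.1 CPM in the DMSO libraries. This sum mostly repeats lsy-6 (means of 54.8 and 89.8 CPM) and mir-790 (57.6 and 83.4 CPM). mir-791 fell with rotenone at 1 day (-0.46 ± 0.16, adjusted p = 0.0424; 6.22% of hairpins fell) and 3 days (-0.60 ± 0.17, adjusted p = 0.0145; 4.15% fell), times at which lsy-6 and mir-124 did not pass. Between 1 and 2 days mir-790 fell in rotenone (-0.48 ± 0.11, adjusted p = 0.000713; 22.3% of hairpins fell) while mir-791 rose (0.55 ± 0.16, adjusted p = 0.00765) along with mir-124. In DMSO over that step neither passed (mir-790 -0.04 ± 0.10, mir-791 0.22 ± 0.14). At 5 days, against 3 days, mir-790 fell in rotenone to 0.541 and in DMSO to 0.491, so 3 of 4 members of the list were lower in either treatment, against 27.5% of all hairpins in rotenone and 22.8% in DMSO. mir-791 rose 1.90-fold there in rotenone (0.92 ± 0.17, adjusted p = 2.52e-05; 21.8% of hairpins rose) and stood at 0.14 ± 0.17 in DMSO. Each difference of mir-791 above that passed set lane 8 against another lane. On lane 8 it averaged 10.5 and 10.1 CPM in rotenone at 1 and 3 days and 14.0 CPM in DMSO at 6 hours. Groups of other lanes averaged 14.5 to 19.2 CPM. At 6 hours, with DMSO on lane 8, all rotenone libraries lay above all DMSO libraries, as for 5.18% of hairpins. The value there did not pass (0.37 ± 0.14, adjusted p = 0.0843), and the part of the lane was not tested.

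Markers of other tissues were set beside these changes. At 2 days mir-228, a marker of glia, was lower with rotenone than with DMSO, at means of 23790 and 33070 CPM (-0.48 ± 0.11, adjusted p = 0.000408). Its DMSO libraries, at 27140, 33270 and 38810 CPM, also increased from replicate 1 to 3 like those of lsy-6 and mir-124. mir-1, a marker of muscle, stood at 0.02 ± 0.096 and mir-60, a marker of intestine, at 0.07 ± 0.093. Of the 8 members of the mir-35 family, which marks oocytes and embryos, 0 passed in edgeR, where 42.5% of all hairpins passed. For mir-42 all rotenone libraries lay below all DMSO libraries (-0.18), as for 20.7% of hairpins, and the other members overlapped. The summed level of the family was 124900 to 126400 CPM with rotenone and 119100 to 129100 CPM with DMSO. In the DMSO libraries of 2 days mir-35 fell from replicate 1 to 3, at 48100, 47160 and 43470 CPM. There mir-1 and mir-60 were highest in replicate 2. How many of all hairpins increased from replicate 1 to 3 was not counted. Between 1 and 2 days, mir-228 rose in DMSO (0.34 ± 0.11, adjusted p = 0.0085) with overlapping libraries, and stood at -0.20 ± 0.11 in rotenone, where mir-124 rose. By 5 days, against 3 days, mir-1 fell in rotenone (-0.58 ± 0.099, adjusted p = 5.27e-06) and in DMSO (-0.55 ± 0.10, adjusted p = 1.25e-05). mir-228 fell as well, by 0.29 in rotenone and 0.27 in DMSO on the log2 scale (adjusted p = 0.0222 and 0.0316), and mir-60 fell in DMSO (-0.25, adjusted p = 0.0271) and stood at 0.0036 in rotenone. Of the mir-35 family 8 of 8 fell in rotenone, where 27.5% of all hairpins fell, and 5 of 8 in DMSO, where 22.8% fell. Between 6 hours and 1 day all 8 rose in either treatment, with median log2 changes of 2.56 in rotenone and 2.36 in DMSO, where 32.6% and 30.6% of all hairpins rose, and members of this family are close copies whose reads the counting could split. The part that these markers' tissues play in the levels of lsy-6 and mir-124 was not tested.

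**Figure D4:**
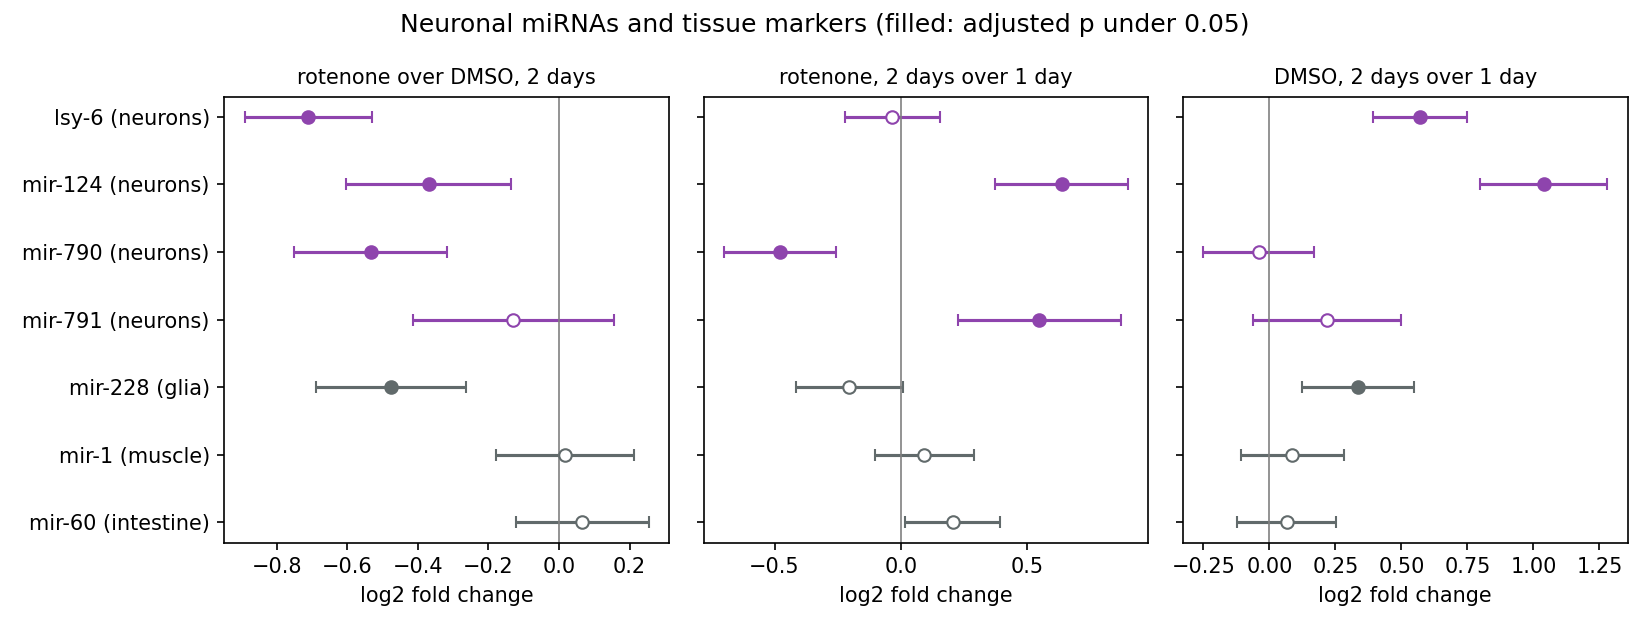
Log2 fold changes (horizontal axes) of the 4 neuronal miRNAs and of the glia, muscle and intestine markers (rows) for rotenone over DMSO at 2 days (left), and for 2 days over 1 day in rotenone (middle) and in DMSO (right). Whiskers are 95% intervals, and filled symbols passed the adjusted threshold of 0.05. lsy-6 stands at -0.03 in the middle panel and 0.57 in the right one, and mir-124 at 0.64 and 1.04.

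Across the 12 group means of log2 CPM, lsy-6 and mir-124 had a Pearson correlation of 0.637 with each other, which gave mir-124 rank 22 among the hairpins most like lsy-6 and lsy-6 rank 20 among those most like mir-124. Most like lsy-6 were mir-62 (0.932), a mirtron released by splicing, mir-233 (0.907), mir-2 (0.892), mir-52 (0.884) and mir-86 (0.88). Over the 36 libraries the same 5 ranked first, with correlations of 0.829 to 0.853. Most like mir-124 were mir-4816 (0.844), mir-67 (0.793), mir-8196a (0.768), mir-49 (0.751) and mir-2 (0.745). Over the 36 libraries the first 4 of these kept their ranks and mir-2 ranked 7 (0.677). These correlations describe groups that share lanes, library depth and scaling. mir-62 had means of 36.4 CPM in rotenone and 52.9 CPM in DMSO at 2 days, and mir-4816 had 59.0 CPM in rotenone and 69.3 CPM in DMSO at that time.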

How the data were processed

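The deposited table holds raw read counts per miRNA hairpin, made by the authors with both arms in 1 row, for 36 libraries; per the labels' protocols, these were made with a TruSeq kit for small RNA. The submitters' processing notes name SAMtools 1.3.1-9, BWA 0.7.12-r1039, Trimmomatic 0.36 and bcl2fastq 1.8.4. Not given in the sources used here are the build and how reads with more than one matching hairpin were counted. No molecular identifiers are named, so counting errors cover counting only.

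Groups came from the labels' treatment and time, and replicate numbers were used only as names of libraries. In R 4.3.3, filterByExpr (minimum count 10) kept 193 of 250 hairpins. The other 57 held 0.000732% of counts. TMM factors were 0.854 to 1.16. A quasi-likelihood model in edgeR 4.0.16 with 1 mean per group was fitted to all 36 libraries, with 24 residual degrees of freedom and 12.6 from the prior, and 28 comparisons were taken from it. Each was adjusted by Benjamini-Hochberg with a threshold of 0.05. The procedure was tested on simulated data. Those counts were drawn independently from the fitted means and spread, with no lane effect between the compared groups. The simulation therefore says nothing about lanes or shared cultures. Library pairs within groups differed beyond sampling noise (chi-square per degree of freedom 16.2 to 366). Log2 CPM for correlations used a prior count of 2. Alternatives included DESeq2 1.42.0.

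The members and lists were chosen with earlier results of these data known. Named are both miRNAs, mir-790 and mir-791, the tissue markers, and the 5 hairpins with the most similar group means.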

Additional observations from a re-analysis of the deposited data

Results flagged for a closer look

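The rotenone effect differed between times for both miRNAs, by a test of the difference itself, and its value was lowest at 2 days. For lsy-6 the test over all 5 times gave F = 12.1, and the effect at 2 days minus that at 6 hours, 1 day, 3 days and 5 days was -0.74, -0.60, -0.65 and -0.77 on the log2 scale. For mir-124 the test gave F = 3.51, and the effect at 2 days minus that at 3 days and at 5 days was -0.59 in either case, while the differences from 6 hours (-0.28) and 1 day (-0.40) did not pass. The F call of mir-124 was lost in 13 of 30 leave-outs and in the compared groups alone, and the call against 5 days in 6 of 12 leave-outs. Each effect is also a difference between lanes, and the part of the lanes was not tested.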

How the results depend on the processing

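Tried were no count filter, scaling by total counts or DESeq2 size factors, DESeq2 itself, a replicate block, the compared groups alone, a lane term, and each library left out in turn. The lane term came in an additive model of time, treatment and lane, which also dropped the change of the rotenone effect between times. Which of these 2 steps changed a result given below as with lane was not tested. Leave-outs aside, 317 of 338 test values of lsy-6 and mir-124 kept direction and side of the threshold. In 15 the sign turned, with 0 of them past the threshold before or after. For lsy-6 this was rotenone at 2 days against 1 day (0.04177 with size factors, 0.05312 with total counts, 0.008549 in the compared groups alone and 0.04191 with DESeq2). For mir-124 it was rotenone against H2O at 1 day (-0.02586 with size factors, -0.0799 with total counts, -0.03448 in the compared groups alone and -0.02522 with DESeq2), rotenone against DMSO at 1 day (-0.04512 with total counts), at 6 hours (0.005668 unfiltered) and on average (-0.01644 with total counts, -0.05055 with lane), and 1 day against 6 hours in DMSO (-0.003025 with total counts, -0.03347 unfiltered) and in rotenone (-0.04325 with total counts). The other exceptions were lsy-6 in DMSO at 3 days against 2 days, which passed as a fall with size factors (-0.2172), total counts (-0.2535) and DESeq2 (-0.2173), the lsy-6 average over times, which failed with lane (-0.1478), and, in the compared groups alone, the mir-124 effect at 2 days minus 1 day, which passed (-0.4928), and its F over times, which failed (3.109). Total counts moved these levels beyond the replicate SD: lsy-6 with rotenone at 6 hours, 3 and 5 days (74.48, 73.06 and 42.23 CPM), DMSO at 6 hours and 5 days (69.05 and 39.74) and H2O at 1 and 5 days (65.39 and 37.47), and mir-124 with rotenone at 6 hours and 2 days (19.85 and 31.72) and H2O at 5 days (13.01). They also moved the median of all hairpins by over 0.1 in several comparisons of times, as by -0.275 in DMSO at 5 days against 2 days. Leave-outs changed these results. lsy-6 spanned -0.2861 to -0.2058 in rotenone at 1 day against 6 hours and -0.3243 to -0.04048 in DMSO at 3 days against 2 days. mir-124 spanned -0.4685 to -0.251 between rotenone and DMSO at 2 days, -0.5669 to -0.3807 (rotenone) and -0.6594 to -0.2035 (DMSO) at 5 days against 3 days, and -0.4639 to -0.3697 in H2O at 5 days against 1 day. Its effect at 2 days spanned -0.6905 to -0.4729 minus 3 days and -0.7714 to -0.3155 minus 5 days, and its F 2.267 to 4.67 (call lost in 13 of 30). The ratio spanned -0.1939 to -0.1129 on average, -0.006901 to 0.2002 at 6 hours and -0.3285 to 0.07636 at 5 days. Values short of the threshold also turned sign: lsy-6 spanned -0.008896 to 0.05839 between rotenone and DMSO at 6 hours and -0.08974 to 0.002854 in rotenone at 2 days against 1 day. mir-124 spanned -0.09361 to 0.1477 at 1 day, -0.05275 to 0.4031 at 5 days and -0.05152 to 0.03966 on average between rotenone and DMSO, -0.1156 to 0.1256 and -0.03784 to 0.113 between rotenone and H2O at 1 and 5 days, -0.08833 to 0.03734 and -0.3877 to 0.06823 between DMSO and H2O at those times, -0.04848 to 0.1029 in DMSO at 1 day against 6 hours and -0.06102 to 0.1804 in rotenone at 3 days against 1 day.

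Between rotenone and DMSO at 6 hours 23 hairpins passed, against 13 with size factors, 10 with total counts, 8 unfiltered, 0 in the compared groups alone and 10 to 17 in leave-outs. At 5 days 2 passed, against 1 with size factors, 0 with total counts, no filter or the compared groups alone, and 0 to 3 in leave-outs. Between rotenone and H2O at 5 days 2 passed, against 0 in those 3 settings, 8 with the replicate block, 4 with DESeq2 and 0 to 5 in leave-outs. The effect at 2 days minus 6 hours passed in 64, against 32 unfiltered, the average over times in 43, against 20 with lane, and DMSO against H2O at 1 day in 0, against 1 with DESeq2. Leave-outs gave 10 to 21 for rotenone against DMSO at 3 days (24 with all), 13 to 27 for the effect at 2 days minus 1 day (26), 13 to 21 for rotenone against H2O at 1 day (23) and 45 to 57 for rotenone at 2 days against 1 day (68). Causes were not tested. Same-numbered libraries deviated together at correlations of -0.227 to 0.148, over 0.1 in 4 of 15 pairs. Whether numbers mark shared cultures is not stated, and these correlations cannot decide it. Libraries were treated as unpaired. With the replicate block no call of either miRNA changed (-0.7113 for lsy-6, -0.3703 for mir-124, rotenone against DMSO at 2 days).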
